A study of Mus musculus with 53 samples.

Results

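Endothelial cells of the mouse cerebellum at postnatal day 7 (P7) were taken as barcodes with unique molecular identifiers (UMIs, each standing for 1 captured transcript) of at least 3 of 7 genes: Flt1, Pecam1, Cldn5, Kdr, Tek, Ptprb and Adgrl4. Barcodes with 1000 to 20000 UMIs and at least 500 detected genes entered, and doublets were not removed. The rule found 751 of 62348 barcodes in 10 single-cell libraries. By group, the Insm1 controls held 73 and 60, the Insm1 mutants 83, 77 and 58, the Tead1/2 controls 91 and 56, and the Tead1/2 mutants 47, 120 and 86 endothelial barcodes.

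The study removed transcription factors from the granule neuron lineage of the cerebellum. Insm1 mutants were Atoh1Cre; Insm1fl/fl and their controls Insm1fl/fl. Tead1/2 mutants were Atoh1Cre;Tead1fl/fl;Tead2fl/fl and their controls Tead1fl/fl;Tead2fl/fl. All groups therefore carried floxed alleles and only the mutants carried Cre, which is driven from Atoh1, a gene of granule cell progenitors and other rhombic lip derivatives and not of vessels. Each P7 library came from 1 cerebellum dissociated with papain. Library 1 of every group held all lobules, while libraries 2 and 3 lacked lobules IX and X. Bulk RNA-seq of single pups at P2, with 4 controls and 4 mutants for Insm1 and 3 controls and 4 mutants for Tead1/2, served as data that the rule did not use. The labels and the names of both bulk tables disagree on which table holds which allele; columns were assigned by the column names in the sample descriptions, and Insm1 fell in the libraries so assigned as Insm1 mutants. The genotype of each P7 library is known from the library names in the deposited cell metadata, since the submission describes all P7 cells as 1 sample.

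The endothelial barcodes held a median of 6113.5 to 9163 UMIs per library and summed to 369155 to 1011347 UMIs. The remaining barcodes of the same libraries had medians of 5435 to 8210. No barcode was shared between libraries, and 0 endothelial barcodes reached 15% mitochondrial UMIs. The sexes were not balanced between groups: Xist and the Y-linked Ddx3y marked Insm1 control 2, Insm1 mutant 1 and Tead1/2 mutants 1 and 2 as male and the other 6 libraries as female. In the remaining barcodes the targeted genes differed from control by -2.46 (log2) for Insm1 in Insm1 mutants and by -1.89 for Tead2 and +1.07 for Tead1 in Tead1/2 mutants. These are counts over whole genes, so transcripts that lack only the deleted exons still count and the Tead1 value does not check the deletion.

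Endothelial cells line the blood vessels. In the brain they form the blood-brain barrier: tight junctions seal the space between cells, and transporters carry glucose, amino acids, lactate and hormones across. Vessels grow towards VEGF-A, which acts through the receptor Kdr (VEGFR2) while Flt1 (VEGFR1) binds the ligand with little signalling; Wnt7 and Norrin ligands acting through beta-catenin induce the barrier; Tek (Tie2) and its phosphatase Ptprb govern vessel stability; and PDGF-B from endothelium recruits pericytes. The cerebellum of the first postnatal week is still being vascularised as its granule progenitors multiply.

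The promoters of Flt1 and Tie1 are shown because ETS factors (Erg, Fli1 and Ets1), whose transcripts were abundant in these cells, bind a core of GGAA letters in endothelial promoters. Each is the 250 bases before the gene's start in RefSeq on GRCm38.p6, read 5′ to 3′ in the direction of the gene. Flt1 lies at chr5:147726012-147726261 and Tie1 at chr4:118489850-118490099, both on the minus strand. Capitals mark AGGAAG, searched on both strands; on the reverse strand it reads CTTCCT.
Flt1: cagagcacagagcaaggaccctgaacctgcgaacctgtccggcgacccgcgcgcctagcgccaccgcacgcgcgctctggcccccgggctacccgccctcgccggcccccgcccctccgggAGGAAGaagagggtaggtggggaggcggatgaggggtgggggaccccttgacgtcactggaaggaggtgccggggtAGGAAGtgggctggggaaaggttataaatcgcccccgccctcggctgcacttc
Tie1: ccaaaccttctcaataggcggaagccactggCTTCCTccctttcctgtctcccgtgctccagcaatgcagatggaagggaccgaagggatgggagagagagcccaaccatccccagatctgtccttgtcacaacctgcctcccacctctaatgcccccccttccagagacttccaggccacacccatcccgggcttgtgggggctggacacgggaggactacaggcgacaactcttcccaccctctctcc
Flt1 held 2 matches on the gene's strand and Tie1 held 1 on the opposite strand. Of all 32851 promoter windows of this length, 9686 (29.5%) held the motif. A window was found for 12 of the 15 genes with the highest endothelial ratio, named below, and 9 of their 18 windows held it. Those 15 include rule genes such as Flt1, and the count was not tested. A match is a description of letters and not a binding site.

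The label held against genes that the rule did not use. Levels below are UMIs summed over a library's endothelial barcodes and scaled to the same total in every library (CPM), and each ratio is the mean over 10 libraries of the difference in log2(CPM + 1) from the remaining barcodes. Of 28 further pan-endothelial genes 27 were in the files, and all 27 were above their level in the remaining barcodes, with a median log2 ratio of 5.93. Their summed level was 4102 and 4281 CPM in controls and 7039, 4736 and 5680 in mutants of the Insm1 series, and 7083 and 7074 in controls and 8333, 7691 and 6894 in mutants of the Tead1/2 series, against 53.0 to 132 CPM in the remaining barcodes. The Insm1 controls were the lowest of the 10 libraries. Cdh5, the cadherin of endothelial junctions, had a UMI in 84.2% of endothelial and 2.22% of remaining barcodes. Erg was detected in 84.6% against 0.484%, and the receptor Cd93 in 86.3% against 0.383%. Cell clusters were not used, and since the rule picked the barcodes by endothelial genes these comparisons are a description with no test.

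How firmly a barcode was marked varied. All 7 rule genes were detected in 460 barcodes, 6 in 169, 5 in 59, 4 in 31 and 3 in 32. In the Insm1 controls all 7 were in 32 of 73 and 22 of 60 barcodes. Insm1 mutants had them in 54 of 83, 40 of 77 and 33 of 58. The median of rule gene UMIs per barcode was 30 and 27 in Insm1 controls and 35 to 52 in the other libraries. The Insm1 controls were thus the least firmly marked, and whether this moved the Insm1 changes below was not tested. Just below the rule, 342 barcodes held 2 of the genes. The further pan-endothelial genes gave 73.9 UMIs per 10000 in barcodes with 7 markers, 23.0 with 4, 5.06 with 3 and 1.82 with 2, against 0.804 in the 55310 barcodes with none. Of the 32 barcodes at the threshold, 9 had no UMI of any further pan-endothelial gene. Barcodes with 4 or more markers alone are used as an alternative below.

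The 7 rule genes set the members and are given without a test. Flt1 was at 1498 ± 431 CPM (SD, n = 10 libraries), from 951 to 2186. Kdr, the main VEGF-A receptor, was at 1098 ± 313, Tek at 694 ± 127, Cldn5, the claudin of brain tight junctions, at 335 ± 81.8, and the adhesion molecule Pecam1 at 355 ± 75.05 CPM. Ptprb was at 1073 ± 379 and the adhesion receptor Adgrl4 at 818 ± 195 CPM. Detection ran from 80.7% of the endothelial barcodes for Cldn5 to 97.2% for Kdr. By library, Kdr was at 722 and 694 CPM in controls and 1188, 703 and 1035 in mutants of the Insm1 series, and 1343 and 1367 in controls and 1593, 1271 and 1063 in mutants of the Tead1/2 series. The Insm1 controls and Insm1 mutant 2 were low, and both Tead1/2 controls were above every Insm1 library.

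**Figure D1:**
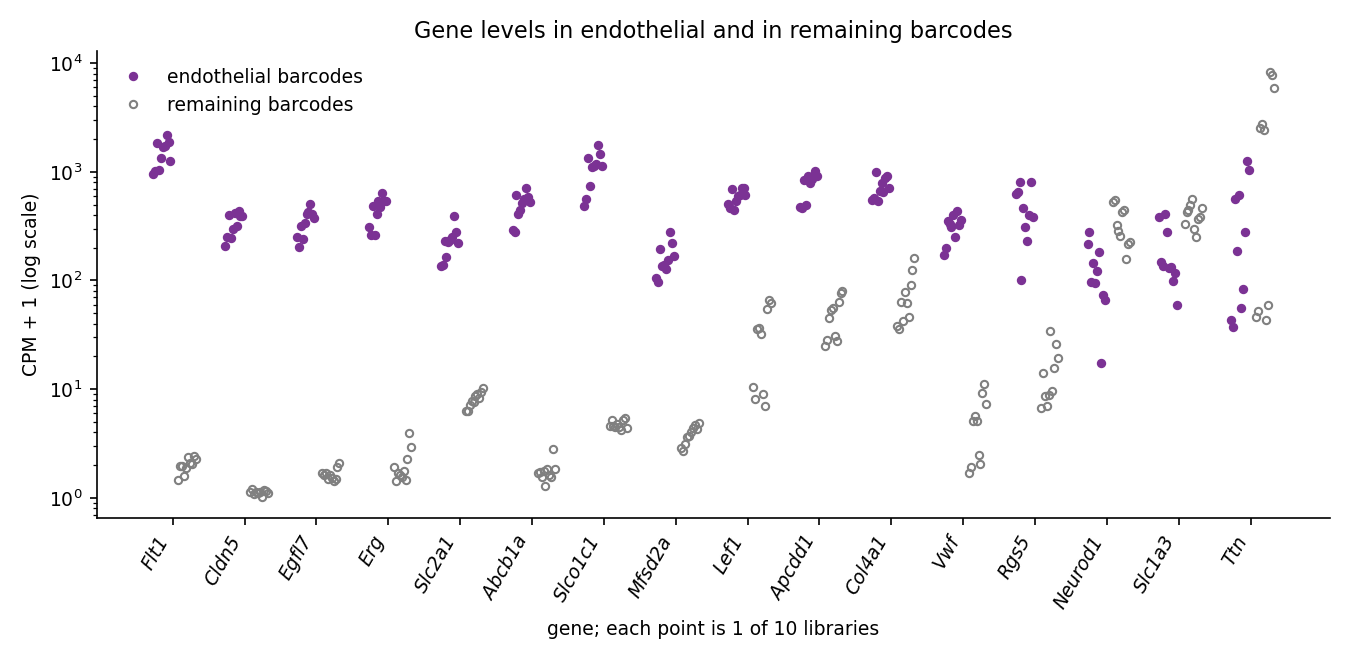
Levels of 16 genes (CPM + 1, log axis) in the summed UMIs of endothelial barcodes (filled points) and of remaining barcodes (open points), 1 point for each of the 10 P7 libraries. The endothelial genes lie far above the remaining barcodes, as Egfl7 does at 201 to 509 against 0.422 to 1.10 CPM. For the rule genes Flt1 and Cldn5 that gap is set by the selection. The granule gene Neurod1 and the astroglial Slc1a3 lie mostly below the remaining barcodes, and the muscle gene Ttn spans a wide range in both.

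The 15 genes with the highest ratio to the remaining barcodes, among 4033 genes at 50 CPM or more, were Flt1, Adgrl4, Tek, Cd93, Cldn5, Abcb1a, Adgrf5, Zfp366, Erg, Slco1c1, Egfl7, Kdr, Mecom, Fgd5 and Ptprb. Among them Flt1, Adgrl4, Tek, Cldn5, Kdr and Ptprb are rule genes, whose ratios are set by the selection, such as the log2 ratio of 9.51 for Flt1. Outside the rule, log2 ratios included 8.30 for Cd93, 8.09 for Abcb1a and 7.76 for Slco1c1. A log2 ratio over 5 was found for 101 of the 4033 genes, and 1215 were above the remaining barcodes in all 10 libraries. Among the transcription factors, Fli1 was at 1308 ± 259 CPM (log2 ratio 5.18), Ets1 at 1185 ± 325 (6.77), Erg at 444 ± 130 (7.78) and Mecom at 2156 ± 567 (7.45). Genes in the following descriptions that are outside the naming rule were picked for their known roles after their values were seen.

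The VEGF pathway was seen from the receptor side. Its 15 listed genes summed to 2626 to 5515 CPM per library against 156 to 207 in the remaining barcodes, but the sum includes the rule genes Flt1 and Kdr, so this contrast is set by the selection. The co-receptors Nrp1 and Nrp2 stood at 473 ± 85.8 (log2 ratio 3.14) and 339 ± 93.0 (4.10) CPM, and the lymphatic and sprouting receptor Flt4 at 101 ± 22.2 (6.45). The ligand Vegfa was at 9.94 CPM, below the remaining barcodes by a log2 ratio of -1.50. Vegfc was at 106 CPM (0.70). In the Tie and PDGF systems, the ligand Angpt1 was below the remaining barcodes (-1.65), Angpt2, which sprouting endothelium makes, was above them (1.55), and Pdgfb stood at 125 ± 40.7 CPM with a log2 ratio of 5.62.

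Genes of the barrier were abundant. The 24 blood-brain barrier transporter genes were all above the remaining barcodes, with a median log2 ratio of 4.401, and summed to 6529 to 15357 CPM per library against 645 to 929. Slc2a1, the glucose transporter GLUT1, was at 226 ± 75.2 CPM, Slco1c1, the thyroid hormone transporter, at 1093 ± 399, Slc16a1, the lactate transporter MCT1, at 905 ± 318, Abcb1a, the efflux pump P-glycoprotein, at 493 ± 137, and Mfsd2a, the lipid transporter that limits transcytosis, at 161 ± 55.4. Plvap, a protein of leaky vessels, had a UMI in 1.20% of the endothelial barcodes against 0.179% of the remaining. Of 19 Wnt and Norrin barrier genes 18 were above the remaining barcodes, among them the transcription factor Lef1 (589 ± 97.9 CPM, detected in 88.5%), the Wnt target Apcdd1 (770 ± 210 CPM) and the receptor Fzd6 (log2 ratio 5.40). The barrier transcription factors Foxf2, Foxq1 and Sox17 had log2 ratios of 5.50, 5.25 and 5.35.

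Markers of vessel type were uneven. Of 12 venous genes 8 were above the remaining barcodes, with a median log2 ratio of 1.57, and 7 reached 20 CPM. Vwf, a haemostasis protein strongest in veins and large vessels, was detected in 61.7% and the venous and capillary amino acid transporter Slc38a5 in 46.7% of the endothelial barcodes. Of 18 arterial genes 15 were above the remaining barcodes, with a median log2 ratio of 0.87, and 7 reached 20 CPM. Several that define arteries were in few barcodes: Gja4 in 6.66%, Sema3g in 7.72% and Bmx in 1.60%. These were above the 0.226%, 1.77% and 0.0877% of the remaining barcodes. Gja5 was at 1.28 CPM with a log2 ratio of -0.56. Of 20 tip cell genes 18 were above the remaining barcodes, with a median log2 ratio of 1.61, and 14 reached 20 CPM. Of the genes of sprouting, the tip cell peptide Apln was detected in 27.7% and the Notch ligand Dll4 in 29.4%, while Esm1 was at 2.40 CPM. The vein receptor Ackr1 was at 4.18 CPM. All 15 basement membrane genes were above the remaining barcodes, including Lama4 (833 CPM, 5.27), Col4a1 (728 CPM, 3.44) and Sparc (1191 CPM, 3.67).

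RNA of neighbouring cell types was also present in these barcodes. Granule lineage genes are the main one: 44.6% to 84.9% of a library's endothelial barcodes held UMIs of at least 3 of them, against 88.1% to 98.1% of the remaining barcodes. Pericytes, which wrap capillaries and can stay attached, were the nearest neighbour. Of 212 barcodes with UMIs of 6 or more of 11 pericyte genes, 52 (24.5%) were among the endothelial barcodes, or 6.92% of them, whereas 8 of 2094 microglial and 14 of 1637 fibroblast barcodes were. Microglial barcodes held UMIs of at least 3 of 10 microglial genes and fibroblast barcodes of at least 5 of 11 fibroblast genes. These minimums differ and were set after the counts of such genes per barcode were seen. The pericyte gene Rgs5 was at 621 and 650 CPM in controls and 808, 101 and 460 in mutants of the Insm1 series, and 311 and 230 in controls and 404, 811 and 380 in mutants of the Tead1/2 series. It was low in Insm1 mutant 2, and its groups overlapped for Insm1 but not for Tead1/2. Its UMIs came from few barcodes, 24 of 133, 42 of 218, 17 of 147 and 35 of 253 in the same order of groups. The smooth muscle gene Acta2 (1.05 CPM) and the microglial C1qa (0.861 CPM) were near 0, and the astroglial Slc1a3 was at 189 CPM, below the remaining barcodes by a log2 ratio of -1.30.

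The endothelial share of all barcodes did not pass the test in either mutant. It was 0.892% (95% Wilson interval 0.710 to 1.12) and 0.925% (0.719 to 1.19) in the controls of the Insm1 series and 1.39%, 1.27% and 1.70% in its mutants. Every Insm1 mutant lay above both controls, by 0.545 percentage points on average, with an exact two-sided permutation p of 0.2, the smallest that 2 against 3 libraries allow. In the Tead1/2 series the share was 1.15% and 1.11% in controls and 0.722%, 1.72% and 1.49% in mutants, a difference of 0.178 points with overlapping groups (exact permutation p = 0.8). Without Tead1/2 mutant 1 it was 0.471 and without Tead1/2 mutant 2 it was -0.0264. Over both alleles the mean difference was 0.361 points (exact permutation p = 0.16). Without Tead1/2 mutant 1, the only mutant below its controls, it was 0.508 (exact permutation p = 0.0333, the smallest possible there). Leaving out any other library gave an exact permutation p from 0.133 to 0.333. The intervals cover counting error only.

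A share moves with its denominator, which in this tissue is mostly granule cells. The microglial denominator used next was not planned. Among endothelial and microglial barcodes together, the endothelial share was 33.8% and 32.8% in controls and 37.1%, 36.3% and 40.0% in mutants of the Insm1 series, and 26.5% and 26.8% in controls and 14.4%, 21.8% and 20.1% in mutants of the Tead1/2 series. It was higher in all Insm1 mutants, by 4.50 points on average, and lower in all Tead1/2 mutants, with a mean difference of -7.85 points and an exact permutation p of 0.2 for each. Microglial barcodes were 3.22% and 3.03% of all barcodes in the controls of the Tead1/2 series and 4.28%, 6.18% and 5.93% in its mutants. In the Insm1 series they were 1.75% and 1.91% in controls and 2.36%, 2.24% and 2.61% in mutants, so they were higher in every mutant of both series. With barcodes that held UMIs of at least 3 skeletal muscle genes left out, the endothelial ones among them included, the differences in share were 0.850 for Insm1 and 0.570 for Tead1/2, and 0.710 over both (exact permutation p = 0.06).

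**Figure D2:**
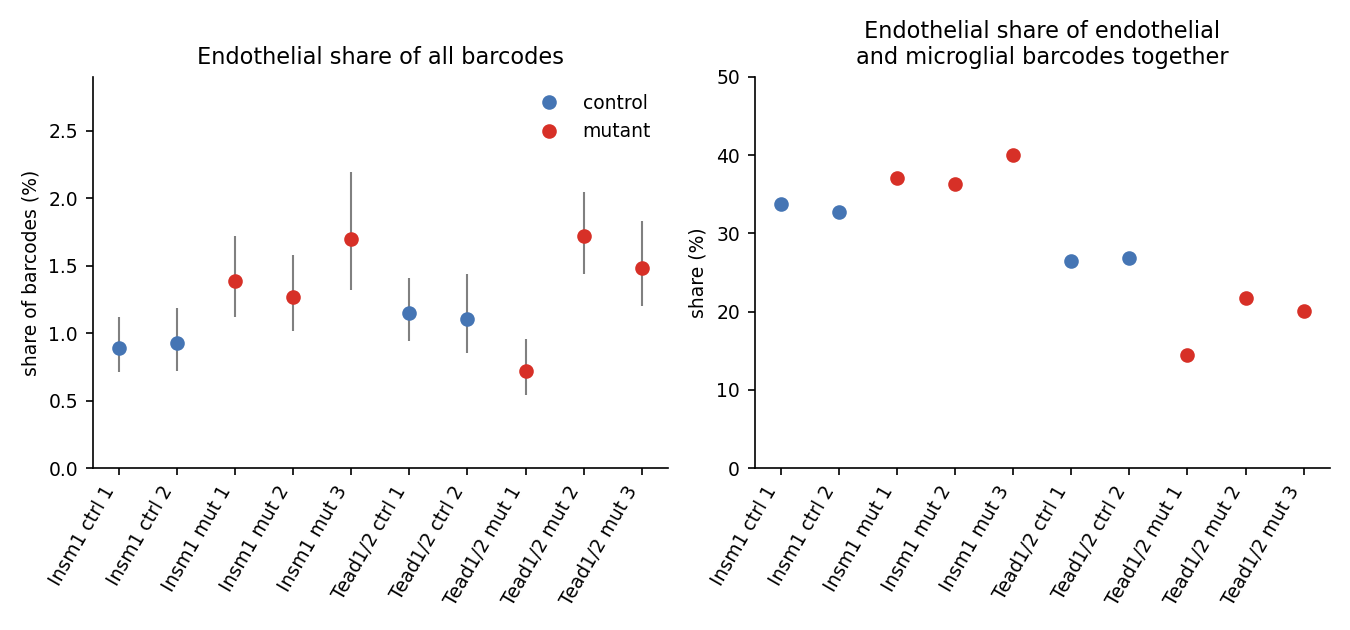
Endothelial share of all barcodes with 95% Wilson intervals (left) and of endothelial plus microglial barcodes (right), in percent, 1 point per P7 library. On the left the Insm1 mutants (1.27% to 1.70%) lie above their controls and the Tead1/2 groups overlap; on the right the Insm1 mutants are above and the Tead1/2 mutants below their controls. The denominator on the right was not planned.

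Gene levels were then compared on the endothelial sums with edgeR's quasi-likelihood test over 9149 genes, with a Benjamini-Hochberg adjusted p under 0.05 as the call. Insm1 mutants differed from controls in 76 genes (0.831%), 30 higher and 46 lower. Tead1/2 mutants differed in 39 genes (0.426%), 10 higher and 29 lower. Over both alleles 293 genes (3.2%) differed, 98 higher and 195 lower, and the difference between both mutant effects passed for 1 gene (0.0109%). The median log2 change of all genes tested was -0.0043, 0.0145 and 0.014. Groups did not overlap for 30.4% of the genes in the Insm1 comparison, 24.6% in the Tead1/2 comparison and 7.39% when both alleles had to move the same way. For Insm1, Tead1/2 and both alleles, 0, 1 and 5 genes were called with an upper limit of 10000 UMIs. With 2 or more markers 732, 273 and 1253 were called. The number of calls also rested on single libraries. For Insm1 it was 2 without Insm1 control 1, 1 without Insm1 control 2, 45 and 20 without Insm1 mutants 1 and 3, 132 without Insm1 mutant 2 and 133 without Tead1/2 mutant 3. For Tead1/2 it was 19 and 4 without Tead1/2 controls 1 and 2, 13 and 75 without Tead1/2 mutants 2 and 3, and 24 and 61 without Insm1 control 1 and Insm1 mutant 2. Over both alleles it was 133 and 105 without Insm1 controls 1 and 2, 164 without Insm1 mutant 3, 128 and 122 without Tead1/2 controls 1 and 2, and 148 without Tead1/2 mutant 2.

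Most called genes were lower in endothelial than in other barcodes. Of the called genes, 58 of 76 (76.3%) in Insm1 mutants, 39 of 39 in Tead1/2 mutants and 251 of 293 (85.7%) over both alleles lay below their level in the remaining barcodes, against 55.6% of all genes tested. The sign was the same in the remaining barcodes for 76 of 76, 39 of 39 and 285 of 293. That agreement was not counted over all genes tested. The granule lineage list summed in the endothelial barcodes to 5016 and 5229 CPM in controls and 3635, 4012 and 3655 in mutants of the Insm1 series, and 3154 and 4355 in controls and 2091, 2595 and 2873 in mutants of the Tead1/2 series. Every mutant was below its controls, and so were the remaining barcodes, with 8319 and 7583 CPM for controls and 5135 to 6169 for mutants of the Insm1 series, and 6928 and 7771 against 4137 to 4308 for the Tead1/2 series. With the granule-marked barcodes left out, 4010 genes could be tested and edgeR called 0, 1 and 0 for Insm1, Tead1/2 and both alleles, with 326, 210 and 252 at an unadjusted p under 0.05. That left 11 and 21 barcodes in controls and 37, 34 and 23 in mutants of the Insm1 series. In the Tead1/2 series it left 42 and 31 in controls and 26, 63 and 42 in mutants. So few barcodes limit these calls and the changes given below without granule-marked barcodes, most of all for Insm1.

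Among 13 tested granule lineage genes, 13 were lower in Insm1 and 12 in Tead1/2 endothelial sums, with median log2 changes of -0.58 and -0.83 and values of -0.45 and -0.93 in the remaining barcodes. Over both alleles 6 of the 13 fell, where 3.2% of all genes were called: Barhl2, Grin2b, Cntn2, Neurod1, Pax6 and Rbfox3. Neuregulin Nrg1 (ENSMUSG00000062991) was at 949 and 1364 CPM in controls and 351, 228 and 358 in mutants of the Insm1 series, and 597 and 792 in controls and 127, 57.3 and 111 in mutants of the Tead1/2 series. It was lower in every mutant and fell by 2.39 over both alleles (log2, SE 0.20, edgeR adjusted p = 4.82e-05). Edil3, an integrin ligand, fell by 1.86 in Insm1 mutants (adjusted p = 0.0133) and by 2.53 in Tead1/2 mutants (adjusted p = 0.0136). The channel gene Kcnh8 fell by 2.58 in Insm1 mutants, and Plppr1 by 2.03 and the glutamate receptor subunit Grin2b by 2.41 in Tead1/2 mutants, where Grin2b had -2.48 with the replicate block (adjusted p = 0.0688). In the remaining barcodes Nrg1 changed by -2.11 and -2.45.

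Genes enriched in endothelium had changes in the opposite direction. The 650 tested genes at over 4 times their level in the remaining barcodes had a median log2 change of 0.42 in Insm1 and 0.15 in Tead1/2 mutants, whereas the 1232 genes under 0.5 times had -0.41 and -0.27. The 650 include the 7 rule genes, whose levels bear on the selection, and 0 of those 7 were called. The same 650 genes had medians of 0.34 and 0.62 in the remaining barcodes, larger than the endothelial value for Tead1/2. Of the 650, 8 (1.23%) rose in Insm1 mutants, 0 (0%) were called in Tead1/2 mutants, where 34 had an unadjusted p under 0.05, and 19 (2.92%) rose over both alleles. Of all genes tested the called shares were 0.831%, 0.426% and 3.2%, so over both alleles the enriched genes were called no more often than all genes. Library sizes were also taken from 643 endothelium-enriched genes alone, the 650 without the rule genes, a scaling added after the data were seen. This moved the median change of all genes to -0.40, -0.12 and -0.25, and the split of calls to 5 higher and 103 lower, 7 and 21, and 41 and 350. On that scale 0, 0 and 1 of the enriched genes were called, and the 1 was Tnfrsf19. The summed UMIs measure composition: more endothelial RNA per barcode and less granule RNA in it cannot be told apart.

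**Figure D3:**
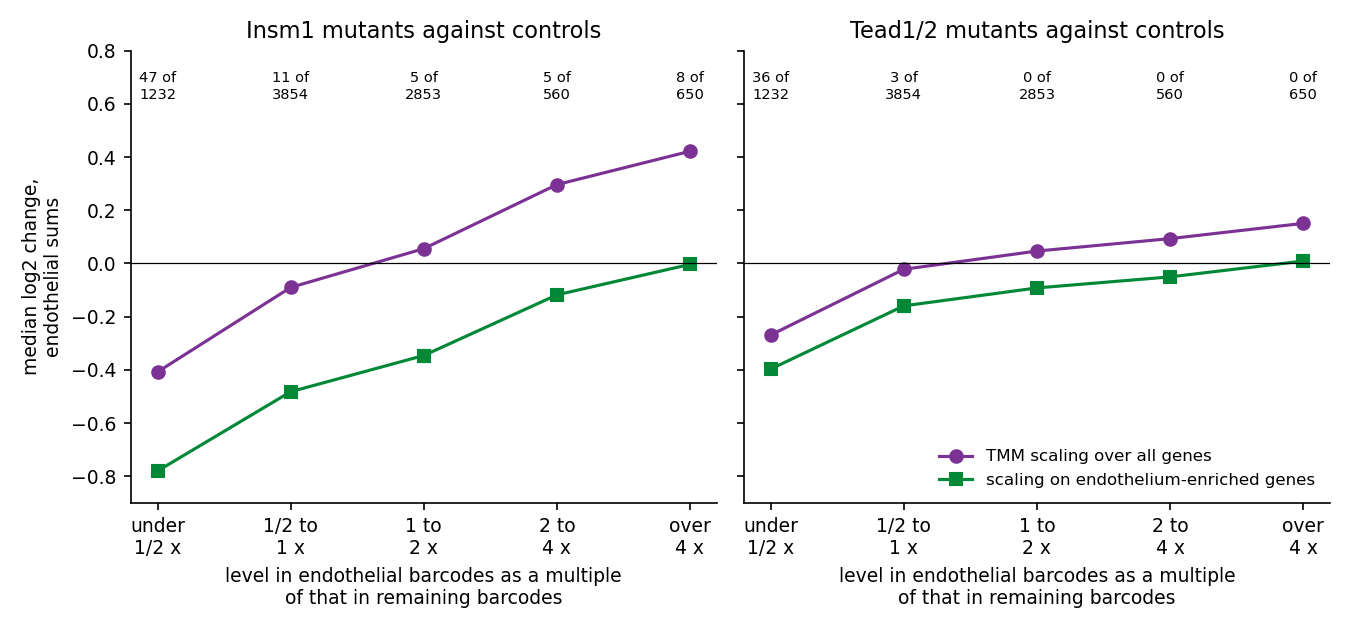
Median log2 change (vertical axis) of genes grouped by their ratio of endothelial to remaining level, for Insm1 and Tead1/2 mutants, with library sizes over all genes and with those from endothelium-enriched genes. With sizes over all genes the medians run from -0.41 to 0.42 for Insm1 and from -0.27 to 0.15 for Tead1/2, upward with the ratio, and the counts above the points are the called genes of those tested. Rescaled, the most enriched genes lie near 0 by construction, since library sizes were taken from them.

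The endothelial genes named next were picked from the called genes after their values were seen. Tnfrsf19 (TROY), a Wnt-responsive receptor of the TNF family in barrier endothelium, was at 97.7 and 68.4 CPM in controls and 244, 183 and 229 in mutants of the Insm1 series, and 166 and 150 in controls and 266, 220 and 287 in mutants of the Tead1/2 series. All mutants were above their controls. It rose by 1.37 (log2, SE 0.21, edgeR adjusted p = 0.0122) in Insm1 mutants, by 1.03 over both alleles (SE 0.14, adjusted p = 0.002), and 0.76 on the endothelium-enriched scale (adjusted p = 0.0158). For Tead1/2 alone its change was 0.69 (adjusted p = 0.188), and for Insm1 alone it was 0.96 on the enriched scale (adjusted p = 0.06). It was detected in 58 of 133 control and 128 of 218 mutant Insm1 endothelial barcodes. In the remaining barcodes it was also higher, by 1.70 and 2.49.

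Afap1l1, an actin-binding adaptor, was at 78.7 and 78.5 CPM in controls and 179, 169 and 174 in mutants of the Insm1 series, and 196 and 176 in controls and 247, 250 and 208 in mutants of the Tead1/2 series. It rose by 1.14 in Insm1 mutants (SE 0.17, edgeR adjusted p = 0.0106), and in the remaining barcodes its change was 3.32. Slc6a6, the taurine transporter, was at 219 and 177 against 511, 322 and 399 CPM in the Insm1 series and rose by 1.04 (SE 0.20, adjusted p = 0.0278). In the Tead1/2 series Slc6a6 was at 504 and 445 against 463, 452 and 485 CPM, with overlapping groups. Entpd1 (CD39), the ectonucleotidase of vessels, was at 33.5 and 44.3 against 110, 94.8 and 88.0 CPM and rose by 1.34 in Insm1 mutants (adjusted p = 0.0173), but its change was -0.016 with granule-marked barcodes left out. Pltp, a phospholipid transfer protein, and the transcription factor Sox13 rose by 0.83 and 1.18. With the replicate number as a block, which at P7 also separates the dissections, Pltp had 0.82 (adjusted p = 0.0541). On the endothelium-enriched scale the Insm1 changes were 0.74 for Afap1l1, 0.61 for Slc6a6, 0.93 for Entpd1, 0.43 for Pltp and 0.77 for Sox13, none of them called.

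Over both alleles the called genes included the following vascular genes. Nos3, the endothelial nitric oxide synthase, was at 114 and 98.6 CPM in controls and 198, 143 and 207 in mutants of the Insm1 series, and 189 and 129 in controls and 228, 240 and 218 in mutants of the Tead1/2 series, a change of 0.63 (SE 0.14, edgeR adjusted p = 0.0302). Slc16a1 was at 474 and 467, then 966, 637 and 908 CPM for Insm1, and 882 and 982, then 1490, 1206 and 1039 CPM for Tead1/2. All mutants were above their controls, and it rose by 0.62 (SE 0.14, adjusted p = 0.0321), with changes of -0.21 and -0.46 in the remaining barcodes. The iron exporter Slc40a1 rose by 0.56 (adjusted p = 0.0322), the sialomucin Podxl by 0.48 (adjusted p = 0.032), fibronectin Fn1 by 0.59 (adjusted p = 0.0371), the transcription factor Foxo1 by 0.58 and the TGF-beta binding protein Ltbp4 by 1.09 (adjusted p = 0.032). Jag1, a Notch ligand, was at 49.6 and 48.3, then 79.0, 91.7 and 108 CPM for Insm1, and 77.6 and 93.8, then 130, 117 and 118 CPM for Tead1/2. It rose by 0.71 (adjusted p = 0.0181) and had 0.44 (adjusted p = 0.195) on the endothelium-enriched scale. With the replicate number as a block Jag1 had 0.66 (adjusted p = 0.0566), Podxl 0.51 (adjusted p = 0.0565) and Slc40a1 0.53 (adjusted p = 0.0857), which ended these calls. Of the 19 called enriched genes 13 had the same sign in the remaining barcodes, where the changes over both alleles were 2.04 for Jag1, 0.81 for Slc40a1, 1.39 for Foxo1, -0.38 for Nos3, -0.69 for Podxl, -0.36 for Fn1 and -0.52 for Ltbp4. On the endothelium-enriched scale Nos3 had 0.35, Slc16a1 0.33, Slc40a1 0.28, Podxl 0.21, Fn1 0.31, Foxo1 0.31 and Ltbp4 0.80, and none of these passed.

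Read by list, most endothelial programmes shared the direction of the enriched genes, and almost none of their members were called. In the pan-endothelial, transporter, Wnt and Norrin and basement membrane lists the median gene was over 4 times its level in the remaining barcodes. Many genes of these lists are thus enriched genes themselves, so the shared direction is partly set by that overlap and is no separate result. The overlap was not counted. Of all genes tested 0.831%, 0.426% and 3.2% were called for Insm1, Tead1/2 and both alleles, so lists this short would hold few calls anyway. For Insm1 and Tead1/2 the medians were -0.059 and 0.16 for 8 hypoxia genes. They were 0.13 and 0.098 for 15 BMP and TGF-beta genes, with 0 called for either allele in both lists. The lists were chosen with earlier results of these data known. Of 26 tested further pan-endothelial genes, 26 were higher in Insm1 and 19 in Tead1/2 mutants (medians 0.45 and 0.11), with 0 called in either and Podxl and Nos3 over both alleles. On the endothelium-enriched scale 13 and 9 of the 26 were higher, with medians of 0.02 and -0.04. Of 24 barrier transporters 23 and 22 were higher (0.55 and 0.24), Slc6a6 was called for Insm1, and 20 and 17 were higher after rescaling (0.15 and 0.10). All 19 Wnt and Norrin genes were tested and 0 were called, with medians of 0.37 and 0.22 that became -0.04 and 0.08. The VEGF, Tie and junction lists hold rule genes (Flt1 and Kdr, Tek and Ptprb, and Cldn5), so their changes are not given. The 12 tested arterial genes had medians of 0.48 and 0.12, the 8 venous 0.36 and 0.20, the 15 tip cell genes 0.25 and 0.20 and the 15 basement membrane genes 0.38 and 0.18, all with 0 called. After rescaling these became 0.08 and -0.03 for arterial, -0.04 and 0.06 for venous, -0.16 and 0.04 for tip cell and -0.04 and 0.03 for basement membrane genes. That scaling lowers the changes of all genes alike, so these are to be read against its own median of all genes. Its library sizes come from enriched genes that include members of these lists. Rescaled medians near 0 are thus partly set by construction and are no separate check. In the Notch list of 13 the medians were 0.56 and 0.35, and 0.17 and 0.20 after rescaling, and Jag1 was called over both alleles. In the remaining barcodes the medians of the same genes were 0.23 and 0.52 for pan-endothelial, 0.19 and 0.33 for transporter, 0.34 and 0.33 for Wnt and Norrin, 0.67 and 0.99 for Notch, 0.50 and 0.43 for venous, 0.48 and 0.66 for tip cell, 0.67 and 0.89 for basement membrane and -0.03 and 0.16 for arterial genes, as large as or larger than the endothelial values for several lists. The medians of all genes given above, -0.0043 and 0.0145, or -0.40 and -0.12 on the rescaled axis, are the values to read these against.

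Granule, muscle and blood genes are given in other paragraphs. The pericyte, oligodendrocyte, GABAergic, microglial, astroglial and fibroblast lists had medians of opposite sign in the alleles, with 0 called in either. Of all genes 0.831% and 0.426% were called for Insm1 and Tead1/2. Of 9 tested pericyte genes 7 were lower in Insm1 mutants (median -0.21) and 9 higher in Tead1/2 mutants (median 0.75). The medians were -1.17 and 1.52 for 3 oligodendrocyte lineage genes, -0.97 and 1.46 for 5 GABAergic genes, 0.99 and -0.28 for 2 microglial genes, 0.12 and -0.54 for 9 astroglial genes and 0.08 and -0.36 for 8 fibroblast genes. The test of the difference between both effects called only the haemoglobin gene Hbb-bs among all genes, a gene of the blood list and of none of these. With the 52 pericyte-marked barcodes left out, a setting that was not planned, 147, 38 and 344 genes were called for Insm1, Tead1/2 and both alleles. Of 13 tested genes of shear stress and immediate early response, 9 were higher in Insm1 (median 0.36) and 10 lower in Tead1/2 mutants (median -0.41), with 0 called for either, and Nos3 was called over both alleles. Rescaled, the medians were -0.07 and -0.56.

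The targeted genes themselves were measured in the endothelial sums. Tead1 was at 567 and 475 CPM in controls and 511, 642 and 575 in mutants of the Insm1 series, and 502 and 485 in controls and 639, 650 and 565 in mutants of the Tead1/2 series. In Tead1/2 mutants its change was 0.31 (SE 0.15, edgeR adjusted p = 0.64), and -0.028 with granule-marked barcodes left out. In the Tead1/2 series Tead2 was at 16.2 and 14.1 CPM in controls and 16.3, 13.8 and 19.8 in mutants, which overlap, with a change of 0.09 (SE 0.37, adjusted p = 0.995), against -1.89 in the remaining barcodes. The cofactors Wwtr1 (TAZ) and Yap1 were at 670 and 103 CPM, with log2 ratios of 4.04 and 1.35, and 0 of 13 tested TEAD and cofactor genes were called. Of all genes 0.831%, 0.426% and 3.2% were called for Insm1, Tead1/2 and both alleles, so 0 of 13 is near that share. Insm1 was at 36.5 and 20.1 CPM in its controls, from 35 UMIs in 21 of 133 barcodes, and at 4.39, 3.11 and 2.05 CPM in its mutants, from 6 UMIs in 6 of 218 barcodes. It fell by 3.07 (SE 0.66, adjusted p = 0.0474), where its change in the remaining barcodes was -2.46.

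Transcripts of dividing cells were fewer in mutant endothelial barcodes. Each barcode was thinned to 1000 UMIs and counted when at least 2 of 30 cell cycle genes had a UMI. The share was 52.1% and 45.0% in controls and 14.5%, 29.9% and 29.3% in mutants of the Insm1 series, and 33.0% and 28.6% in controls and 19.1%, 15.8% and 17.4% in mutants of the Tead1/2 series. All mutants lay below their controls, and over both alleles the difference was -18.6 points, with an exact permutation p of 0.02, the smallest possible. Without thinning the difference was -8.78 points (exact permutation p = 0.06), and Tead1/2 mutant 3 (80.2%) lay above both of its controls (79.1% and 78.6%). The remaining barcodes held 50.7% to 56.7% in controls and 33.0% to 39.3% in mutants. In endothelial barcodes without a granule mark the shares were 9.09% and 19.0%, then 8.11%, 17.6% and 13.04% for Insm1, and 21.4% and 22.6%, then 15.4%, 11.1% and 9.52% for Tead1/2. That left -5.57 points over both alleles (exact permutation p = 0.12), with overlapping groups for Insm1. The 9.09% of Insm1 control 1 was 1 of 11 barcodes. The Insm1 overlap lay between dissections, which the permutation did not use. Within each dissection every mutant of both series was below its control, but this was not tested.

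By gene, 6 of 30 cell cycle genes fell over both alleles (Knl1, Diaph3, Brip1, Top2a, Mki67 and Pola1), all 30 were lower, and the list's median was -0.56 against -0.64 in the remaining barcodes. Of all genes tested 3.2% were called over both alleles. Mki67, the proliferation marker, was at 459 and 539 CPM in controls and 209, 354 and 348 in mutants of the Insm1 series, and 370 and 277 in controls and 249, 147 and 220 in mutants of the Tead1/2 series. All mutants were below their controls, and it fell by 0.72 (SE 0.17, edgeR adjusted p = 0.0397). With the replicate block its change was -0.80 (adjusted p = 0.0533), and with granule-marked barcodes left out it was 0.13. Across all endothelial barcodes Mki67 was detected in 35.8% and Top2a, the topoisomerase of dividing cells, in 26.5%, against 48.4% and 35.5% of the remaining.

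**Figure D4:**
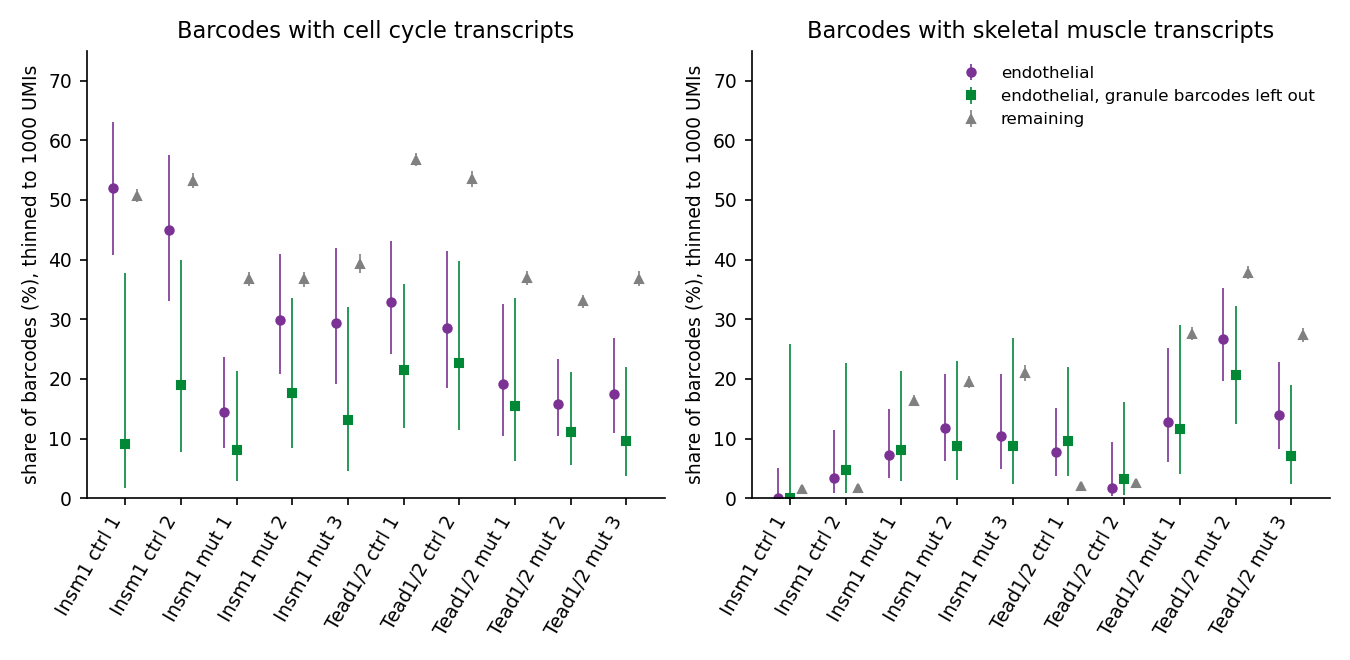
Share of barcodes, thinned to 1000 UMIs, with UMIs of at least 2 cell cycle genes and of at least 2 skeletal muscle genes, in percent, per P7 library with 95% Wilson intervals, for endothelial barcodes, endothelial barcodes without a granule mark and remaining barcodes. Cell cycle shares of endothelial barcodes run from 28.6% to 52.1% in controls and from 14.5% to 29.9% in mutants, and muscle shares of endothelial barcodes are higher in the mutants, except that without a granule mark Tead1/2 mutant 3 (7.14%) lies below Tead1/2 control 1 (9.52%). That control held all lobules, while Tead1/2 mutant 3 lacked lobules IX and X.

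Skeletal muscle transcripts were more frequent in mutant endothelial barcodes. By the same rule with 40 muscle genes the share was 0% and 3.33% in controls and 7.23%, 11.7% and 10.3% in mutants of the Insm1 series, and 7.69% and 1.79% in controls and 12.8%, 26.7% and 13.95% in mutants of the Tead1/2 series. All mutants lay above their controls, by 10.6 points over both alleles (exact permutation p = 0.02, the smallest possible), and by 21.6 points without thinning (exact permutation p = 0.02). Without granule-marked barcodes the shares were 0% and 4.76%, then 8.11%, 8.82% and 8.70% for Insm1, and 9.52% and 3.23%, then 11.5%, 20.6% and 7.14% for Tead1/2. Tead1/2 mutant 3 was then below Tead1/2 control 1, and the difference over both alleles was 6.45 points (exact permutation p = 0.04), with p = 0.2 for Insm1 and 0.4 for Tead1/2. These 2 libraries differ in dissection. Within each dissection every mutant was above its control, but this was not tested. The Insm1 controls held only 11 and 21 of these barcodes. The remaining barcodes held 1.62% to 2.46% in controls and 16.3% to 37.8% in mutants. In controls the muscle list summed higher in endothelial than in remaining barcodes. It was at 321 to 427 against 211 to 237 CPM for Insm1, and at 539 to 648 against 240 to 255 for Tead1/2. Without thinning, 32.9% to 62.6% of endothelial and 24.9% to 31.1% of remaining barcodes of the control libraries were counted. The 40 genes include the transcription factor Mef2c, and only 4 of them averaged 20 CPM or more over the endothelial sums. Which listed genes gave this control level was not tested, so it is not read as muscle RNA in control endothelium. The giant sarcomere protein Ttn was at 42.3 and 36.2, then 562, 185 and 607 CPM for Insm1, and 54.4 and 82.0, then 279, 1250 and 1045 CPM for Tead1/2. It rose by 3.61 over both alleles (SE 0.46, edgeR adjusted p = 9.77e-04) while the change in the remaining barcodes was 6.37. Single barcodes carried much of the Ttn signal: 299 of 384 UMIs in Insm1 mutant 1, 51 of 119 in Insm1 mutant 2, 196 of 297 in Insm1 mutant 3, 57 of 103 in Tead1/2 mutant 1, 447 of 1264 in Tead1/2 mutant 2 and 348 of 845 in Tead1/2 mutant 3 came from 1 barcode each. Ttn was still detected in 80 of 218 and 153 of 253 mutant barcodes, against 33 of 133 and 48 of 147 in controls. For Myh3, an embryonic myosin, 1 barcode held 38 of 56 UMIs in Insm1 mutant 1 and 114 of 166 in Tead1/2 mutant 3, and with the replicate block its Tead1/2 change was 3.46 (adjusted p = 0.0922). Lincmd1, a muscle RNA, rose by 4.14 and 4.39. Of 15 tested muscle genes 1 rose in Insm1 mutants (Ttn), 3 in Tead1/2 mutants (Ttn, Myh3 and Ryr1) and 10 over both. These 15 of the 40 fixed genes are those that passed the filter on low counts, mostly through the mutants where they are high, so the share called is no measure of the list. A barcode that holds free RNA or a second cell would also be counted, and that part was not tested.

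Other called genes also rested on few barcodes. Slit3, a secreted guidance protein, was at 2.92 and 8.05 CPM in controls and 129, 228 and 311 in mutants of the Insm1 series, from 6 UMIs in 6 of 133 and 387 UMIs in 43 of 218 barcodes, and rose by 5.37 (SE 0.74, edgeR adjusted p = 0.0102). In the remaining barcodes it changed by 4.33. Hbb-bs, a haemoglobin chain of red blood cells, had 49 UMIs in 2 of 133 Insm1 control barcodes and 1 UMI in 218 mutant barcodes, and Hba-a1 20 UMIs in 2 and none in 218. In these libraries almost all Hbb-bs UMIs came from 1 barcode per library, so its call in Insm1 mutants (log2 change -5.81, adjusted p = 0.00122) and the 1 called difference between alleles (6.17, adjusted p = 0.00964) rest on single barcodes.

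In bulk tissue at P2 most genes of the further pan-endothelial list were slightly lower in mutants, with none called. Here a value reflects both the number of endothelial cells and the RNA per cell, which cannot be told apart. The further pan-endothelial genes summed to 357.6, 323.8, 320.0 and 336.7 CPM in controls and 284.9, 339.7, 243.2 and 267.9 in mutants of the Insm1 series, with Insm1 mutant 2 inside the control range. In the Tead1/2 series they summed to 330.5, 305.7 and 298.5 CPM in controls and 250.7, 312.5, 292.3 and 267.6 in mutants, with overlapping groups. Of 27 tested genes 26 were lower in Insm1 mutants (median -0.19) and 20 in Tead1/2 mutants (median -0.089), 0 were called in either, and edgeR called 135 of 19582 genes (0.689%) and 0 of 20247 (0%). For Tead1/2, 4052 genes had an unadjusted p under 0.05 and DESeq2 called 960. Tead1/2 mutant 4 stood apart: its skeletal muscle genes summed to 136 CPM, against 148 to 161 in Tead1/2 controls and 337 to 439 in the other Tead1/2 mutants. Without it edgeR called 646 (3.19%), and without Tead1/2 control 2 or 3 it called 14 or 20. For Insm1 the count was 64, 74 and 72 without Insm1 control 1, 3 or 4, and 83 and 67 without Insm1 mutant 2 or 4.

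Kdr was at 51.0, 44.1, 46.8 and 50.6 CPM in controls and 34.5, 47.2, 34.9 and 39.8 in mutants of the Insm1 series, and its change was -0.30 (SE 0.09, edgeR adjusted p = 0.302). Only Insm1 mutant 2 lay within the controls. In Tead1/2 mutants its change was -0.27 (adjusted p = 0.153), and Flt1 had -0.20 (adjusted p = 0.612) in Insm1 mutants. Among the lists, 22 of 24 barrier transporters (median -0.13), 17 of 19 Wnt and Norrin genes (-0.17) and 12 of 15 basement membrane genes (-0.21) were lower in Insm1 mutants with 0 called, and 11 of 11 fibroblast genes (-0.61) were lower as well. Of all genes 0.689% were called for Insm1 at P2. Of 14 Notch pathway genes Mfng, which modifies Notch receptors, fell and Jag1 rose in Insm1 mutants. Jag1 was at 17.3, 15.8, 16.4 and 19.6 CPM in controls and 23.0, 29.9, 33.9 and 33.1 in mutants of the Insm1 series, which do not overlap, a change of 0.80 (SE 0.11, adjusted p = 0.0103). In Tead1/2 mutants its change was 0.32 (adjusted p = 0.193), and 0.44 (adjusted p = 0.00509) without Tead1/2 mutant 4, where Mfng and Hey1 also fell. Jag1 is also made by other cells of the cerebellum, and the bulk value does not say which.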

How the data were processed

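P7 single cells were profiled with Parse Evercode WT v3, per the labels' protocols, and the authors deposited UMI counts per barcode with cell metadata that names the library. P2 bulk tables hold expected counts per gene that the authors deposited, made with STAR 2.7.9a and RSEM 1.3.3 on GRCm38.p6, per the submitters' processing notes; they were rounded here. The P7 gene table names build GRCm39, so no coordinate was passed between the builds. The members, gene lists and tests were chosen with earlier results of these data known.

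UMIs of the 751 endothelial barcodes were summed per library, filtered with filterByExpr, scaled with TMM and tested with edgeR 4.0.16 (quasi-likelihood; 4 groups in 1 fit over 10 libraries; adjusted p under 0.05). Shares were compared by exact two-sided permutation of libraries, within allele where both were joined and without regard to the dissection. Depth was 369155 to 1011347 endothelial UMIs per P7 library and 2.81e+07 to 6.45e+07 expected counts per bulk library. Named genes were the 7 rule genes, up to 8 called rises and falls per contrast at 20 CPM or more without overlap between groups, up to 6 genes of highest CPM per list, the 15 of highest endothelial ratio, and all TEAD and Insm genes. Whether the labels' replicates of 1 group share a litter is not given in the sources used here. DESeq2 1.42.0, other scalings, filters, member rules, a sex term, the replicate block and leaving out each library were tried as alternatives.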

Additional observations from a re-analysis of the deposited data

Results flagged for a closer look

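In the P2 bulk data 30 groups of 4 samples were looked at, and in 2 of them 1 sample lay far from the other 3, about the 1 in 20 that chance gives. Cldn5 was at 57.1 CPM in Insm1 control 4, where the other controls were at 62.4 to 63.3. Adgrl4 was at 13.05 CPM in Tead1/2 mutant 4, where the other mutants were at 15.5 to 15.7.

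The change of Hbb-bs in P7 endothelial sums differed between the alleles by 6.17 (log2, Tead1/2 change minus Insm1 change, edgeR adjusted p = 0.00964), and its UMIs came from about 1 barcode per library.

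The endothelial share of endothelial and microglial barcodes was higher in all Insm1 mutants, by 4.50 points, and lower in all Tead1/2 mutants, by a change of -7.85 points. With fibroblasts in place of microglia the differences were 9.16 and -15.2 points. Neither denominator was planned. The difference between the alleles was not tested. Of all barcodes in the Tead1/2 series, fibroblast barcodes were 2.22% and 1.37% for controls and 2.49%, 3.96% and 5.76% for mutants. In the Insm1 series they were 1.87% and 2.14% for controls and 2.26%, 1.81% and 2.46% for mutants.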

How the results depend on the processing

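Counts of called genes follow as Insm1, Tead1/2, both alleles and the difference between them. They were 732, 273, 1253 and 0 with 2 or more markers, 484, 329, 678 and 86 with no filter on low counts, 0, 1, 5 and 0 under 10000 UMIs (501 genes had an unadjusted p under 0.05 for Insm1), and 0, 1, 0 and 0 without granule-marked barcodes. DESeq2 called 77 for Tead1/2 and 4 differences. Insm1 had 127 calls from its own libraries alone, 135 with a sex term and 147 without pericyte barcodes. The difference had 0 with 4 or more markers and 0 without pericyte barcodes. Leaving out 1 library gave 1 to 133, 4 to 75, 105 to 374 and 0 to 1. In P2, DESeq2 called 312 and 960 and no filter 212 and 1287 for Insm1 and Tead1/2, all 15 libraries in 1 fit gave 4 for Tead1/2, and leaving out 1 library gave 64 to 132 and 0 to 646. With the replicate block, P7 calls were 114, 56 and 282 and P2 calls 64 and 236. Number 1 marks the P7 libraries with all lobules, and numbers 2 and 3 those without lobules IX and X, but same-numbered samples did not deviate together (correlations of -0.15 to -0.01 at P7 and -0.13 to 0.23 at P2). The block ended the calls of Flnc and Pltp (Insm1), Myh3 and Grin2b (Tead1/2), and Slc40a1, Podxl, Jag1, Mki67 and Slc17a6 (both alleles).

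The share difference turned for Tead1/2 over microglia (-7.85) and fibroblasts (-15.2) and over both alleles (-1.67 and -3.04). Leaving out 1 library gave -0.0264 to 0.471 for Tead1/2 and 0.259 to 0.508 over both. The cell cycle difference over both alleles was -8.78 (p = 0.06, exact permutation) without thinning and -5.57 without granule-marked barcodes, and -20.4 to -16.1 with 1 library left out; the muscle difference was 21.6 without thinning and 8.35 to 12.05 with 1 library left out. Without any 1 control library both had an exact permutation p of 0.05, the smallest possible with that control left out. Changes that turned sign without granule-marked barcodes were Entpd1 (-0.016), Tead1 (-0.028), Mki67 (0.13) and Gse1 (0.91). The Insm1 controls then held only 11 and 21 barcodes. Tead2 turned with 2 or more markers (-0.21), on endothelium-enriched scaling (-0.030) and without Tead1/2 mutant 3 (-0.11), where leaving out other libraries gave up to 0.27. Hbb-bs had no UMI in either Insm1 group without granule-marked barcodes and could not be compared there. The cause of these moves was not tested. Each library held only 47 to 120 endothelial barcodes, which limits the precision of genes with few UMIs.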
